A study of Homo sapiens with 2 samples.

Results

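NFKB1, IL6, SOCS3, PTGS1 and PTGS2 were 5 of the 84 genes assayed on a real-time PCR plate of CaP (prostate cancer) genes, and they were taken by name as the genes of NFκB, interleukin 6 and prostaglandin synthesis. The plate compared RNA of control LNCaP cells with RNA of BMI1-silenced LNCaP cells. LNCaP is an established human prostate cancer line grown from a lymph node metastasis. Both groups were the same line, and BMI1, a polycomb group protein that represses genes through chromatin, was reduced in one of them. The sample labels give the silencing agent as siRNA, whereas the study's methods name a vector from which a short hairpin RNA is made, brought in by lipid transfection, which does not reach every LNCaP cell. Neither source says what the control cells of this plate received, how long after transfection RNA was taken, or how many cultures were combined. Equal amounts of total RNA of a group were pooled, so there was 1 sample per group. No test could be made, no p-value is given, and the variation between cultures is unknown.

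NFκB is a family of dimeric transcription factors that switch on inflammatory and survival genes. NFKB1 codes for p105, which is processed to the p50 subunit. IL6 codes for interleukin 6, a cytokine that signals through a membrane receptor, JAK kinases and the transcription factor STAT3, and the IL6 gene is a classical NFκB target. SOCS3 is induced by STAT3 and dampens the same signal by binding the receptor and its JAK kinases. PTGS1 and PTGS2 code for cyclooxygenases 1 and 2, which carry out the committed step from arachidonic acid to prostaglandins. PTGS1 is present at a steady level in many tissues, and PTGS2 is inducible by cytokines, growth factors and NFκB. In CaP, interleukin 6 and cyclooxygenase 2 are known for links with growth, androgen independence and inflammation.

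The sequence just before the start of NFKB1, IL6 and PTGS2 is shown because one of the motifs searched was found close to their starts, on the gene's own strand. The sequences are RefSeq's, on GRCh38.p14, and cover the 150 bases before an annotated transcription start, 5′ to 3′ on the gene's own strand. Capitals mark the NF-kB consensus in NFKB1 and IL6 and the TATA motif (TATAAA) in PTGS2. The NFKB1 stretch is chr4:102501209-102501358, plus strand. The IL6 stretch is chr7:22727050-22727199, plus strand. The PTGS2 stretch is chr1:186680424-186680573, minus strand.
NFKB1: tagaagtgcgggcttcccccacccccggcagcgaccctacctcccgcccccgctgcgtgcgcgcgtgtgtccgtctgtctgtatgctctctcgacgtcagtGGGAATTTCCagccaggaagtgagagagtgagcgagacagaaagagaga
IL6: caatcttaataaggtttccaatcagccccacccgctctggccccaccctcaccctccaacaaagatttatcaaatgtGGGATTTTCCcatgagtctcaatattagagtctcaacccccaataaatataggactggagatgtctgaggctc
PTGS2: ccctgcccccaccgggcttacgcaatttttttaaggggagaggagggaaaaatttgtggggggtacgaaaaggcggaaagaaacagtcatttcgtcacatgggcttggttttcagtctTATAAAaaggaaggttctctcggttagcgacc

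RefSeq gave 8 promoter windows for the 5 genes, 2 each for NFKB1, SOCS3 and PTGS1 and 1 each for IL6 and PTGS2. A window runs from 250 bases before to 50 bases after a start. Both strands were searched. The NF-kB consensus was found in 2 of the 8 windows, that of IL6, beginning 73 bases before the start, and one of NFKB1, beginning 49 bases before it. Of all 35116 windows, 11.3% held a match. The TATA motif lay 32 bases before the start of PTGS2 and, on the opposite strand, 208 bases before one start of PTGS1, and 11.5% of all windows held it. The STAT motif TTCNNNGAA (7.66% of all windows) and the cyclic AMP response element TGACGTCA (1.85%) were in none of the 8. The windows also differed in CG dinucleotides, the substrate of DNA methylation. The NFKB1 windows held 35 and 28 of them and the SOCS3 windows 34 and 17, against 12 in PTGS2, 4 and 10 in PTGS1, 7 in IL6 and a median of 14 over all windows. A match describes the letters of the sequence and says nothing about binding in these cells.

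The threshold cycle (Ct) of a well is the PCR cycle at which its fluorescence crosses a set level, so a lower Ct means more template and 1 cycle stands for up to a 2-fold difference. The authors deposited raw Ct values and normalized values (2 raised to the negative Delta Ct, where Delta Ct is the Ct minus a reference Ct), which are linear and rise with the amount of RNA. In the normalized table every Ct above 32 had been set to 32, and a gene at this ceiling has only an upper bound for its level. All changes below are log2 of the normalized value in BMI1-silenced over control cells, minus the mean of the same quantity over the 5 reference genes ACTB, B2M, GAPDH, HPRT1 and RPLP0. The reference genes varied around their own mean with an SD of 0.47, and 3 positive PCR control wells in each sample gave an SD of 0.60 cycles for the difference of 2 single wells. These 2 spreads are the only measures of error used here, and neither covers variation between cultures. The positive PCR control wells had mean Ct values of 19.8 and 19.7, so they did not measure the spread of wells at later Ct values. In all 5 genes the normalized values went with the raw Ct values (within 0.001 cycles, with the ceiling applied) once the control and silenced columns of the raw table traded places, and in 0 of the 5 with the columns as named. The directions below follow the normalized table and the header that divides test by control. With the raw columns as named every direction is the opposite. BMI1 itself was not assayed, so the plate holds no check of which sample was silenced.

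The labelled cell line was set against the genes that mark it. Raw Ct values in this paragraph follow the raw columns as named, so the value behind the normalized control sample comes second. KLK3, the prostate-specific antigen gene and a hallmark of LNCaP, had raw Ct values of 29.7 and 34.2 and was at the ceiling in the control sample. TMPRSS2, an androgen-regulated protease gene, had raw Ct values of 27.98 and 28.13. Of the 4 markers fixed for the line, 2 had raw Ct values over 29 in both samples, against 12 of the 83 panel genes. In contrast GSTP1 (22.3 and 20.8) and CAV1 (22.6 and 20.4), which LNCaP is known for expressing little, were among the 5 highest normalized values of the 84 genes in both samples. GSTP1 and CAV1 were chosen after their values were seen. KLK3, GSTP1 and CAV1 thus went against the label in both samples. What this means for IL6, which LNCaP is commonly described as producing in small amounts, was not tested.

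NFKB1 and IL6 were far lower in the BMI1-silenced sample, and PTGS1 was far higher. Relative to the reference mean, SOCS3 was modestly higher and PTGS2 stayed within 2-fold, and both results depended on the reference chosen. Against the reference mean, 2 of the 5 genes were at least 2-fold lower, where 19.3% of the 83 comparable panel genes were, and 2 of the 5 were at least 2-fold higher, where 34.9% of the panel was. The median log2 change of the 5 genes was -0.78, against 0.20 for the 83 genes. With 5 genes, these counts do not set the group apart from the panel. In a pooled RNA sample, fewer cells with a transcript and less of it per cell cannot be told apart.

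NFKB1 (NM_003998) had a normalized value of 51.5 in the control and 0.319 in the BMI1-silenced sample. The Ct values behind them were 21.96 and 29.02, so the silenced sample needed 7.06 more cycles. The log2 change relative to the reference genes was -5.66, or 50.5-fold lower. It was 12.1 times the SD of the reference genes. The study describes selection of transfected cells only for another line, so cells without the vector may be in the pooled RNA. How falls as large as this one and that of IL6 go with such a share of cells was not tested. NFKB1 was the 8th highest of the 84 genes in the control sample and the 64th in the silenced sample. Of the 83 comparable genes, 2 had a lower change than NFKB1.

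IL6 (NM_000600) had a normalized value of 58.5 in the control and 2.12 in the BMI1-silenced sample, with Ct values of 21.8 and 26.3. The log2 change was -3.11, or 8.62-fold lower, which was 6.66 times the SD of the reference genes. In the control sample IL6 was the 6th highest of the 84 genes, and in the silenced sample it was the 33rd. Its Ct stayed well below the ceiling in both samples.

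SOCS3 (NM_003955), the feedback inhibitor of the interleukin 6 signal, did not follow IL6. Its normalized value was 3.40 in the control and 2.46 in the BMI1-silenced sample. The Ct values were 25.9 and 26.1, a difference of 0.188 cycles, while the reference genes moved by far more. Relative to them the log2 change was 1.21, or 2.31-fold higher, which was 2.6 times the SD of the reference genes and 2.01 times the SD of the difference of 2 wells. This rise depended on the reference. It was 0.50 with GAPDH alone, -0.47 in the deposited values as they stand, and -0.11 with the positive PCR control wells as the reference, where equal RNA input is assumed. The sign of the SOCS3 change therefore depended on the reference even with the columns taken as in the normalized table.

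Both cyclooxygenase genes had low levels, and against the reference mean PTGS1 passed 2-fold while PTGS2 did not. PTGS1 (NM_000962), the steadily expressed form, was at the ceiling in the control sample, among 9 such genes, and had a normalized value of 0.215 in the BMI1-silenced sample. The raw table gave it a Ct of 33.0 on the control side, once the columns were exchanged, and of 29.6 on the silenced side. The log2 change was at least 3.82, or at least 14.1-fold higher. Without the ceiling it was 4.86, or 29.1-fold higher. The 2 Ct values were 3.46 cycles apart. PTGS2 (NM_000963), the inducible form, had a normalized value of 0.827 in the control and 0.151 in the silenced sample, with Ct values of 27.9 and 30.1. Its log2 change was -0.78, or 1.71-fold lower, which was 1.67 times the SD of the reference genes and 1.29 times the SD of the difference of 2 wells. With GAPDH alone as the reference it was 2.80-fold lower, and with HPRT1 alone 1.19-fold lower. PTGS2 was 5.49-fold lower in the deposited values as they stand. With the positive PCR control wells as the reference it was 4.29-fold lower. The genomic DNA control wells had Ct values of 41.9 and 44.6, far later than any member. Both cyclooxygenase genes had a Ct near 30 in the silenced sample, whereas the panel median on that side was 27.4.

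**Figure D1:**
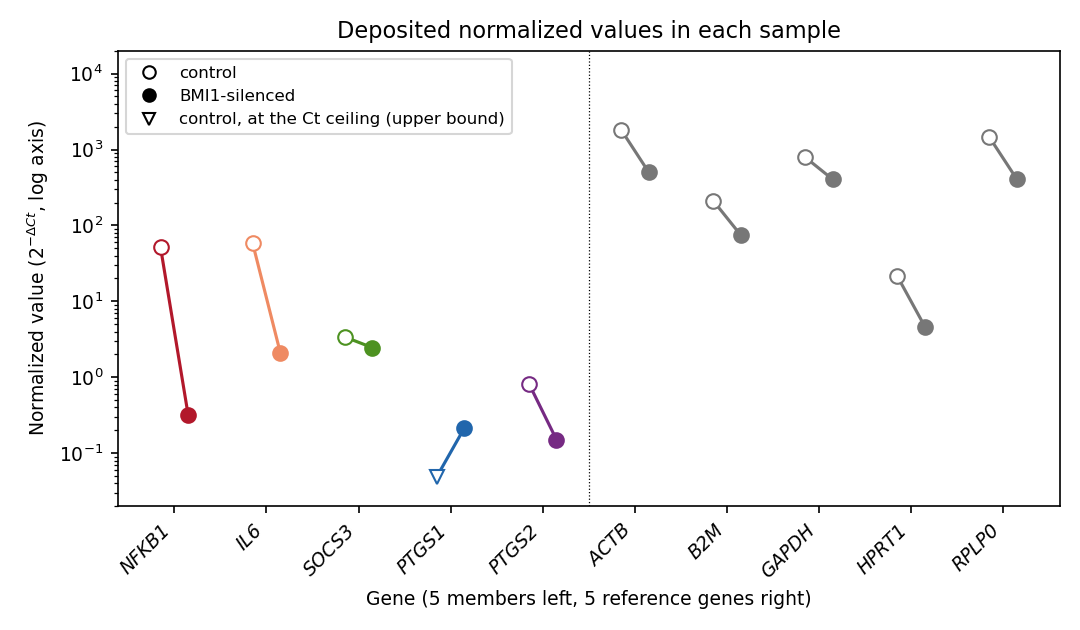
Normalized values (linear Delta Ct scale, drawn on a log axis) of the 5 genes and the 5 reference genes. Each gene has 1 open symbol for the control and 1 filled circle for the BMI1-silenced sample, and the open triangle marks PTGS1 at the ceiling in control cells. NFKB1 (51.5 to 0.319) and IL6 (58.5 to 2.12) have the steepest lines, all 5 reference genes also slope down, and PTGS1 alone among the 10 slopes up.

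The plot of normalized values also shows why the reference matters. The 5 reference genes had lower normalized values in the BMI1-silenced sample, by a mean log2 change of -1.68. Measured against the positive PCR control wells, with the raw columns exchanged, they were 2.50-fold lower. Whether the sample held less cDNA or less of these transcripts was not tested. A difference between 2 members does not depend on the reference. NFKB1 fell by 2.55 more than IL6 on the log2 scale, a 5.86-fold difference in their changes. The changes of IL6 and SOCS3 differed by 4.32, or 19.96-fold, so the ratio of SOCS3 to IL6 transcript was higher in the silenced sample whichever gene served as the reference. The changes of NFKB1 and PTGS2 differed by 4.88. The changes of PTGS1 and PTGS2 differed by at least 4.59, or at least 24.1-fold, and by 5.64 without the ceiling. The changes of SOCS3 and PTGS2 differed by 1.99. Among the 10 possible pairs this was the smallest difference, and all 10 were larger than 0.85 cycles, the SD that the positive control wells give for a comparison of 4 wells. Passing this SD is a description, and the spread at the later Ct values of PTGS1 and PTGS2 was not measured.

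The order of the levels changed with these shifts. Each assay has its own amplification efficiency, so the order describes the assays on the linear normalized scale. In the control sample it ran from IL6 through NFKB1, SOCS3 and PTGS2 to PTGS1. IL6 and NFKB1 were 0.18 apart on the log2 scale, less than the spread of 2 wells, and every other step was larger than it. In the BMI1-silenced sample SOCS3 was first, followed by IL6, NFKB1, PTGS1 and PTGS2. There SOCS3 and IL6 (0.21 apart), NFKB1 and PTGS1 (0.57) and PTGS1 and PTGS2 (0.51) were within the spread of 2 wells, and the 1 clear step lay between IL6 and NFKB1, at 2.73.

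**Figure D2:**
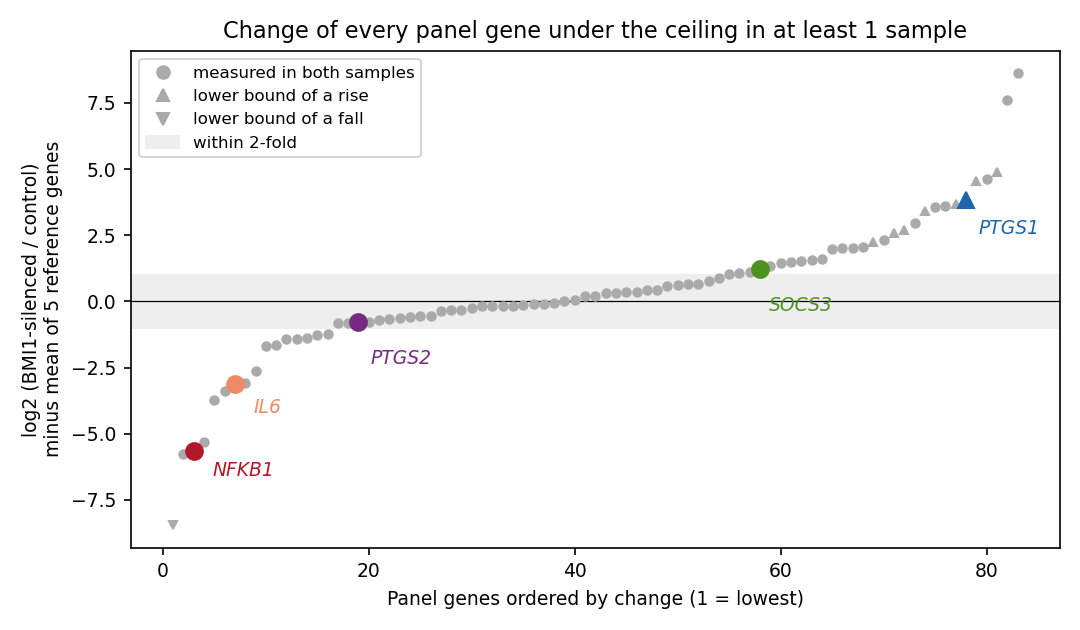
Log2 change of the 83 comparable panel genes (BMI1-silenced over control, minus the mean of the 5 reference genes), ordered from lowest to highest. Coloured symbols are the 5 genes, triangles are bounds from the ceiling, and the grey band is within 2-fold. NFKB1 (-5.66) and IL6 (-3.11) lie in the left tail, PTGS2 (-0.78) lies inside the band, SOCS3 (1.21) lies just above it, and PTGS1 (at least 3.82) lies among the bounds at the right.

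In the ordered plot of the panel, the genes with the changes nearest to each member were found by the smallest difference in log2 change among genes under the ceiling in both samples. With 1 value per gene, nearness describes these 2 samples only. Nearest to NFKB1 were CCND1 (cyclin D1), at -5.75, and USP5, a deubiquitinase gene, at -5.32. Nearest to IL6 were MKI67, the gene of the proliferation marker Ki-67, at -3.07, and BCL2, the anti-apoptotic gene, at -3.40. Nearest to SOCS3 were TGFB1I1 at 1.13 and MAX, the partner of the MYC proteins, at 1.35. Nearest to PTGS2 were MGMT, a DNA repair gene, at -0.76 and SREBF1, a regulator of lipid synthesis, at -0.81. PTGS1 was 1 of 8 genes at the ceiling in the control sample alone. The others were EDNRB, HAL, KLK3, LGALS4, SFRP1, SHBG and SLC5A8. The bounds of the 8 genes ran from 2.25 to 4.89, and their raw Ct values on the control side ran from 32.5 to 35.2, against the ceiling of 32.

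Of 3 further genes widely described as NFκB targets, 2 were at least 2-fold lower in the BMI1-silenced sample and 0 higher, beside 19.3% and 34.9% of the panel. The 3 genes were chosen with earlier results of these data known, and the study itself reports falls of cyclin D1 and BCL2. Those 2 falls are therefore no independent sign about NFκB targets. CCND1 went from a normalized value of 156 to 0.904 and BCL2 from 9.76 to 0.290. VEGFA, the angiogenic growth factor gene, had a log2 change of 0.33 and was within 2-fold. For BCL2 and VEGFA the normalized values did not match the Ct values of the raw table in either column order. With the raw columns exchanged the change of BCL2 was the same, at -3.40, and that of VEGFA was 2.33, or past 2-fold. The median of the 3 genes was -3.40, beside 0.20 for the panel. Of 4 genes for upstream kinases and a growth factor receptor, 2 were at least 2-fold lower and 0 higher, beside the same panel shares. AKT1, a survival kinase that can activate NFκB, had a log2 change of -1.42. PDPK1, the kinase that activates AKT1, stood at 0.02. Of 3 transcription factor genes, 0 were at least 2-fold lower and 2 were higher, where 34.9% of the panel was higher. Lists of 3 or 4 genes are not set apart from the panel by such counts. EGR3, an immediate early gene, had a log2 change of 4.62, and CREB1, the factor of the cyclic AMP response element, stood at 0.06. The NF-kB consensus lay in a promoter window of each of the 2 lower members, though not in every window of NFKB1, and in no other member. With 5 genes this is a description, and a link with the changes was not tested.

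**Figure D3:**
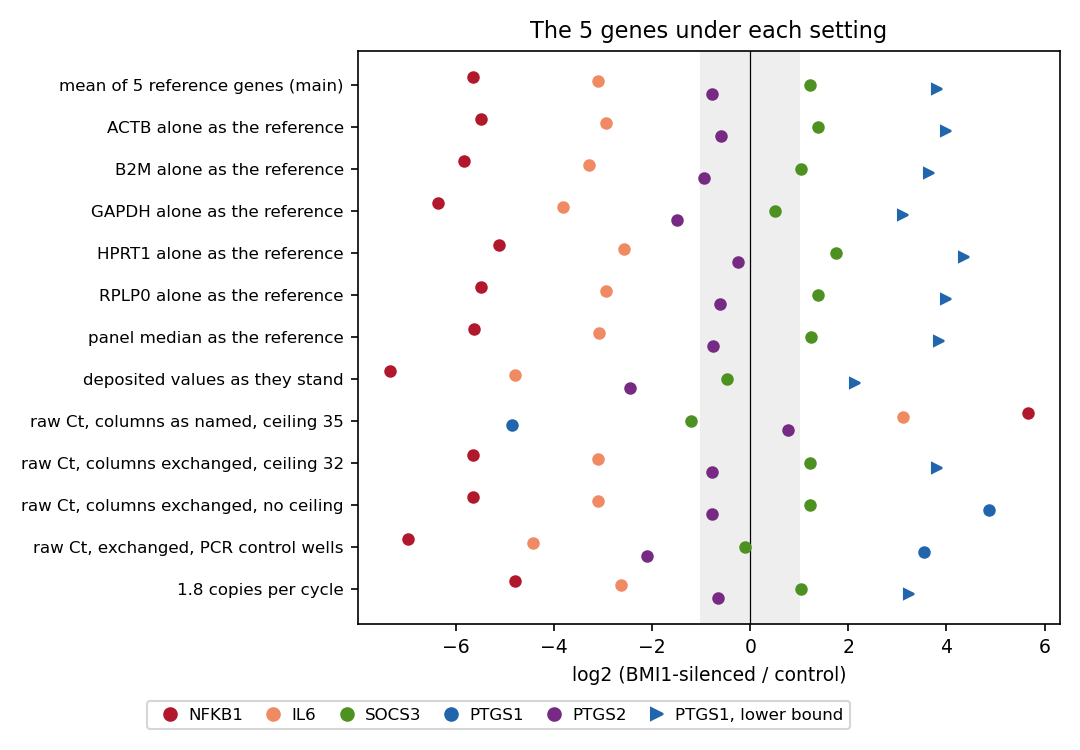
Log2 change of the 5 genes (BMI1-silenced over control) under the main setting and 12 others, 1 row each, with the band within 2-fold in grey and bounds for PTGS1 as triangles. NFKB1 (from -7.34 to -4.80) and IL6 (from -4.79 to -2.58) stay left of the band and PTGS1 stays right of it in 11 of the 12 other settings, and the row with the raw columns as named mirrors the main row, apart from the ceiling on PTGS1.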

How the data were processed

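RNA of 1 control and 1 BMI1-silenced sample had been reverse transcribed from 1 microgram and amplified for 45 cycles on a 96-well SYBR Green plate. The authors analysed it with the vendor's array software, and the fluorescence threshold behind each Ct and the genes used as reference are not given in the sources used here. The authors deposited raw Ct values per well, a normalized table holding the ratio of each gene to 1 reference per sample (2 raised to the negative Delta Ct), and their own ratios of test to control, which were not used. Depth does not apply, and each value is 1 well. The silenced-to-control ratio was taken on the log2 scale relative to the mean of 5 reference genes, as no test was possible. A gene was counted at 2-fold, the limit that the study set for its array analysis. RefSeq (GRCh38.p14) gave symbols for 88 of 89 accessions.

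The members, lists and settings were chosen with earlier results of these data known. The genes named are the members, the reference genes, 3 pathway lists, LNCaP markers, the 2 genes nearest in change to each member and genes sharing its ceiling. Certain genes that this rule or these lists hold are counted but not reported here. Only the subtraction of the reference mean was tried on simulated Ct values, with less noise than the positive PCR control wells showed. The ceiling, the bound for PTGS1 and the exchange of raw columns were not part of that trial. Alternatives were each reference gene alone or left out, the panel median, the deposited values, raw Ct values, 1.8 copies per cycle, and 4-fold and 1.5-fold thresholds. Python 3.11.15, numpy 2.4.6 and matplotlib 3.10.9 were used.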

Additional observations from a re-analysis of the deposited data

How the results depend on the processing

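With the panel median, ACTB, B2M or RPLP0 in place of the reference mean, and with raw Ct values exchanged at the ceiling of 32, every log2 change of the 5 genes moved by less than 0.47. With GAPDH alone the changes were -6.36 (NFKB1), -3.81 (IL6), 0.50 (SOCS3), 3.11 (PTGS1) and -1.48 (PTGS2), and 1 gene instead of 2 was at least 2-fold higher. With HPRT1 alone they were -5.13, -2.58, 1.74, 4.35 and -0.25 in the same order. The deposited values as they stand gave -7.34, -4.79, -0.47, 2.14 and -2.46, and the positive PCR control wells gave -6.98, -4.43, -0.11, 3.54 and -2.10, each with 1 gene at least 2-fold higher. These settings shift all genes by one amount, except that the control-well values also drop the ceiling on PTGS1. At 1.8 copies per cycle NFKB1 was -4.80, IL6 -2.64 and PTGS1 3.24. Without a ceiling PTGS1 was 4.86. Reading the raw Ct table with its columns as named turned them to 5.66, 3.11, -1.21, -4.86 and 0.78, which follows from the exchange of columns. At a 4-fold threshold 1 gene was higher. The count of lower genes was 2 or 3 in all 19 settings, and the count of higher genes stayed at 2 with each reference gene left out. In the setting with the raw columns as named the counts covered other genes, PTGS1 and SOCS3 being the lower ones. No paired analysis was possible because neither group holds more than 1 sample. The precision is limited by 1 well per gene and sample, and most for PTGS1 and PTGS2, whose Ct values were near 30 or above in 1 or both samples.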
